A study of Rattus norvegicus with 2 samples.

Results

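The enzymes that bring pyruvate into the mitochondrion and oxidise it were examined in A7r5, a rat cell line of vascular smooth muscle derived from the embryonic aorta. They were the mitochondrial pyruvate carrier, the pyruvate dehydrogenase complex with its kinases and phosphatases, the enzymes of the tricarboxylic acid (TCA) cycle, and the malic enzyme, aminotransferases and glutamate dehydrogenase joined to the cycle. Members were taken from a list of 35 gene symbols, and a gene entered when a probe set on the array was annotated with that symbol alone. This gave 34 of the 35 genes, out of 10411 genes named on the array, and the core subunit gene Dlat is only named here. The members were read by 44 probe sets, and the probe set with the highest mean intensity over both arrays stood for the gene.

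The control cells carried an empty adenovirus, and the GLUT1 cells an adenovirus with the human cDNA of the glucose transporter GLUT1, through which glucose enters cells down its gradient. Both had been infected for 72 hours at a multiplicity of infection of 10 and kept in medium with 5.5 mM glucose, so infection and glucose level were shared by both groups. RNA of 3 separate days was pooled into 1 sample per group, and each pool was read on 1 array. There was therefore no replicate, and no test, p-value or standard error stands behind any difference below. In such bulk RNA, fewer cells that express a gene and less RNA per cell cannot be told apart.

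Pyruvate from glycolysis crosses the inner mitochondrial membrane through the carrier and is turned into acetyl-CoA by the pyruvate dehydrogenase complex. Kinases switch this complex off by phosphorylating its alpha subunit, and phosphatases switch it on again. The cycle then oxidises the acetyl group, and its intermediates are exchanged with amino acids through aminotransferases and glutamate dehydrogenase. The complex is also the branch point where pyruvate is either oxidised or left to become lactate. The comparison asks how these genes stood in cells given the GLUT1 virus rather than the empty virus. The amount of transporter was not measured here.

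The deposited intensities are linear, rounded to whole numbers and already nearly equal in distribution between the arrays, with a median of 508 on both. Values below 175, the 25th percentile over the pooled values, were raised to that floor. Genes were called measured if their mean log2 intensity was at least the median over all probe sets, which is 507 in linear units, and 6114 genes were. The log2 ratio is GLUT1 over control throughout, and 2-fold is a log2 ratio of 1. As a scale of array noise and real differences together, each ratio was set beside the local spread. This is the scaled median absolute deviation of the ratios of the 500 probe sets nearest in brightness, and distances are given in local spreads from the median of those probe sets. The rat probe set of Slc2a1, the gene of GLUT1, read 2902 and 3121; since the virus carried the human sequence, it does not check the labels. The groups were taken from the sample titles. A further description label names GLUT1 over-expression on both samples, and the direction of every ratio below rests on the titles. Of 10 smooth muscle markers 9 were measured, with log2 ratios from -0.17 to 0.19, and Myh11, the smooth muscle myosin heavy chain, lay below the filter. None of 4 epithelial and none of 6 skeletal or cardiac muscle markers was measured, 1 of the 5 endothelial markers on the array was, and so were 2 of 5 leukocyte markers. The summed intensity of the endothelial markers was 1003 with the empty virus and 838 with GLUT1, and that of the leukocyte markers 3027 and 2858. Within the leukocyte list the measured C1qb had a log2 ratio of -0.41 and Cd14 of 0.18. The epithelial sum was 246 and 408 and the skeletal and cardiac muscle sum 1009 and 1152, all from markers below the filter. Their part in the values below was not tested.

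The 34 genes were sorted into 11 steps, which leave out fumarase, and each of the 11 had at least 1 gene above the filter. Of the 34 members 33 were measured, where 58.7% of all genes on the array were. The exception was Pdk2, with a mean intensity of 444, while the dimmest members above the filter were Pdk4 at 692 and Pdk3 at 737. Brightness depends on the probe as well as on the transcript, so the intensities of different genes give no order of abundance. No measured member differed by 2-fold in either direction, beside 0.0164% of all measured genes that were 2-fold higher and 0% that were 2-fold lower. At 1.5-fold there was again no member, beside 0.0654% of all measured genes higher and 0.0654% lower. The median log2 ratio of the 33 was 0.022, beside 0.0064 over all measured genes. Above 0 were 19 members and below 0 were 14, a share of 57.6% above beside 52.2% of all measured genes.

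The plot of the intensities shows these readings gene by gene.

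**Figure D1:**
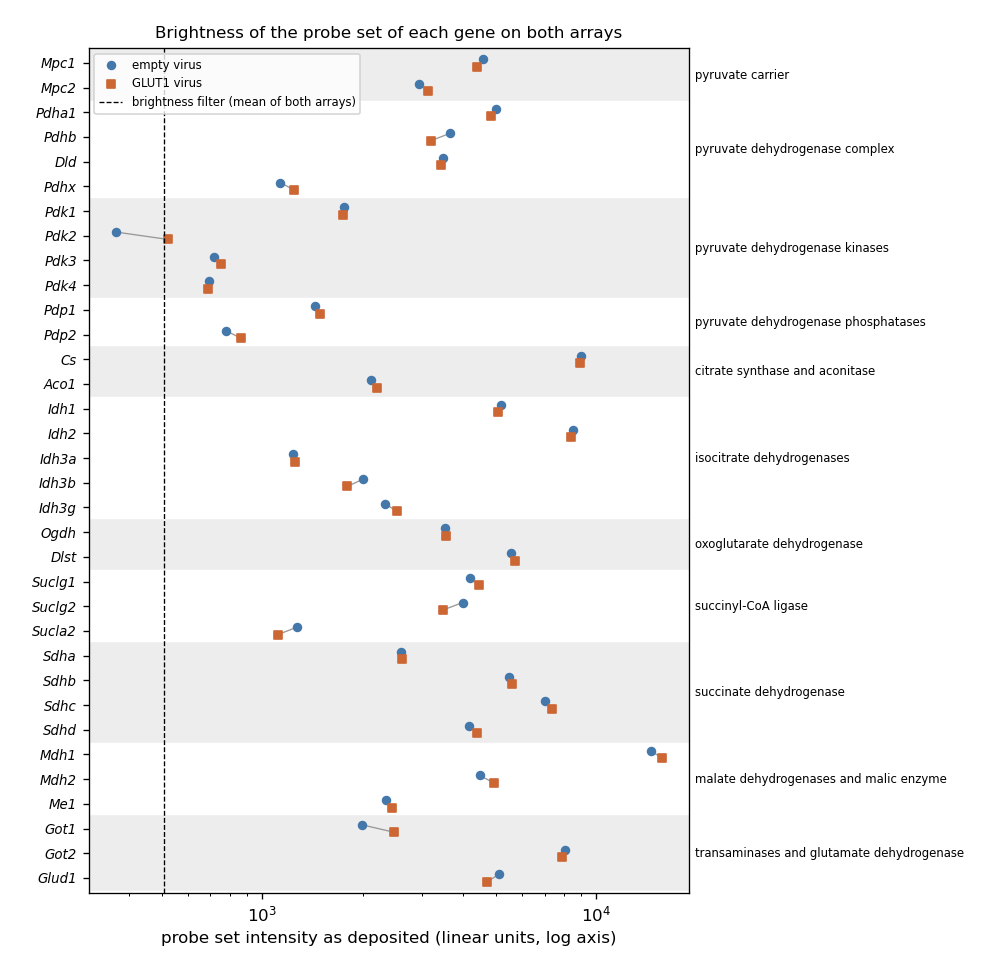
Deposited intensity (linear units on a log axis) of the probe set of each of the 34 genes, 1 row per gene and grouped by step, on the empty-virus array (circles) and the GLUT1 array (squares); the dashed line marks the brightness filter at 507. The circle and square of a gene lie close together in nearly every row, and only Pdk2, at 365 and 523, has its mean below the line; rows of different genes cannot be ranked against each other.

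The mitochondrial pyruvate carrier is built from the products of Mpc1 and Mpc2, and both genes were bright on both arrays. Mpc1 read 4582 with the empty virus and 4392 with GLUT1, a log2 ratio of -0.060. Mpc2 read 2951 and 3134, a log2 ratio of 0.088. The partner subunits thus lay on opposite sides of 0, 0.15 apart, which was 1.05 times their joint local spread.

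The first enzyme of the pyruvate dehydrogenase complex, E1, is a tetramer of alpha and beta subunits that takes the carboxyl group off pyruvate. Pdha1, the alpha subunit that the kinases phosphorylate, read 4999 and 4829, a log2 ratio of -0.049. A second probe set of Pdha1 read 2520 and 2710, a ratio of 0.11, so the direction for this gene depends on the probe set. Pdhb, the beta subunit, read 3655 with the empty virus and 3206 with GLUT1, a log2 ratio of -0.19 and 1.98 local spreads below the median of like probe sets. It was the member of the complex farthest from 0 and was read by 1 probe set. Dld, the dihydrolipoamide dehydrogenase that the complex shares with oxoglutarate dehydrogenase, read 3471 and 3420, a log2 ratio of -0.020. Pdhx, the protein that anchors that dehydrogenase to the core, read 1135 and 1246, a log2 ratio of 0.14, within 1 local spread. The 4 measured genes of the complex had a median of -0.034, with 3 below and 1 above 0.

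The 4 kinases of the complex are isoforms that differ in tissue pattern and control, Pdk1 being known as a hypoxia-inducible gene and Pdk4 as a gene raised in fasting. All 4 had a probe set, and 3 were measured. Pdk1 read 1764 with the empty virus and 1744 with GLUT1, a log2 ratio of -0.015, and its second probe set read 864 and 863. Pdk3 read 720 and 754, a log2 ratio of 0.068. Pdk4 read 693 and 690, a log2 ratio of -0.0049. The measured kinases were thus all within 0.46 local spreads of the median of like probe sets, and the 3 pairs among them differed by at most 0.083. Pdk2, the widely expressed isoform, read 365 with the empty virus and 523 with GLUT1, a log2 ratio of 0.52 and 2.33 local spreads at that low brightness. A second Pdk2 probe set, annotated to the same sequence record, read 244 and 249, a log2 ratio of 0.031. Both probe sets lay below the filter and their ratios differed by 0.49, so the arrays gave no settled value for Pdk2. Which kinase isoform was the most abundant cannot be read from these intensities.

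The phosphatases reactivate the complex. Pdp1, the calcium-sensitive isoform, read 1442 with the empty virus and 1494 with GLUT1, a log2 ratio of 0.052. Pdp2 read 779 and 866, a log2 ratio of 0.15. Both were above 0 and within 1 local spread, with a step median of 0.10. Beside them stood a median of -0.0049 for the 3 measured kinases, or 0.031 with no brightness filter, when Pdk2 enters.

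Citrate synthase condenses acetyl-CoA with oxaloacetate and opens the cycle. Its gene Cs was the member best covered, with 3 measured probe sets. They read 8990 and 8922, 6859 and 6887, and 3292 and 3270, control first. Their log2 ratios of -0.0096, 0.0072 and -0.0083 lay on both sides of 0 and close to it. Aco1 encodes the cytosolic aconitase, which also serves as the iron regulatory protein IRP1, and read 2118 and 2204, a log2 ratio of 0.059.

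Isocitrate is oxidised by NADP-dependent enzymes in the cytosol and the mitochondrion and by the NAD-dependent enzyme of the cycle itself. Idh1, the cytosolic form, read 5182 with the empty virus and 5096 with GLUT1, a log2 ratio of -0.023. Idh2, its mitochondrial counterpart, read 8502 and 8390, a log2 ratio of -0.018. These differed from each other by 0.0050, or 0.041 joint local spreads. The 3 subunits of the NAD-dependent enzyme spread farther. The catalytic Idh3a read 1234 and 1252, a log2 ratio of 0.022. The beta subunit gene Idh3b read 2006 and 1800, a ratio of -0.15, and the gamma subunit gene Idh3g 2336 and 2527, a ratio of 0.11. Beta and gamma thus lay on opposite sides of 0, 0.27 apart and 1.78 joint local spreads, while each alone was within 1.36 local spreads.

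Oxoglutarate dehydrogenase forms succinyl-CoA and is built like the pyruvate complex. Its E1 gene Ogdh read 3526 with the empty virus and 3556 with GLUT1, a log2 ratio of 0.014. Its core gene Dlst read 5569 and 5718, a log2 ratio of 0.039. With Dld at -0.020, all 3 components lay within 0.42 local spreads of the median of like probe sets.

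Succinyl-CoA ligase makes GTP or ATP in the matrix, depending on which beta subunit joins the common alpha subunit. Suclg1, the alpha subunit, read 4194 with the empty virus and 4454 with GLUT1, a log2 ratio of 0.088. Suclg2, the beta subunit of the GTP-forming enzyme, read 3981 and 3482, a log2 ratio of -0.19 and 2.07 local spreads below the median of like probe sets. Sucla2, the beta subunit of the ATP-forming enzyme, read 1270 and 1113, a log2 ratio of -0.19, which at its lower brightness was 1.31 local spreads. The alternative beta subunits had nearly the same ratio, 0.0028 apart, and both lay opposite to their shared partner. The step had a median of -0.19, but this median rests on Sucla2. With the filter raised to the 75th percentile of brightness, Sucla2 dropped out and the median over the other subunits was -0.052.

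Succinate dehydrogenase belongs to the cycle and, as complex II, to the respiratory chain. Its flavoprotein gene Sdha read 2596 with the empty virus and 2625 with GLUT1, a log2 ratio of 0.017. The iron-sulphur subunit gene Sdhb read 5484 and 5609, a ratio of 0.034. The membrane anchor genes were Sdhc, which read 7048 and 7355, a ratio of 0.063, and Sdhd, which read 4163 and 4396, a ratio of 0.080. A second Sdhd probe set, annotated to the same sequence record, gave 0.065. All 4 subunits were above 0, each by less than 1 local spread, and they spanned 0.063. The 3 subunits of succinyl-CoA ligase spanned 0.28 and the 4 measured genes of the pyruvate complex 0.32, and both sets include dimmer genes with wider local spreads. Narrow ranges were also seen at other steps, though over fewer genes. Ogdh and Dlst spanned 0.026, and Cs and Aco1 spanned 0.068, each over 2 genes only. With the shared Dld, oxoglutarate dehydrogenase reached from -0.020 to 0.039.

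Malate dehydrogenases interconvert malate and oxaloacetate in both compartments. Mdh1, the cytosolic form, read 14625 with the empty virus and 15677 with GLUT1, a log2 ratio of 0.10. A second Mdh1 probe set, below the filter at 344 and 327, gave -0.072, and with both averaged the gene came to 0.015. Mdh2, the mitochondrial form, read 4485 and 4932, a ratio of 0.14. Mdh1 and Mdh2 lay 1.45 and 1.49 local spreads above the median of like probe sets. Me1, the cytosolic malic enzyme that makes NADPH, read 2348 and 2440, a ratio of 0.057, and 0.045 by a second probe set. The step had a median of 0.10, or 0.051 with all probe sets of a gene averaged.

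The aspartate aminotransferases work with the malate dehydrogenases in the malate-aspartate shuttle, which carries reducing equivalents from glycolysis into the mitochondrion. Got1, the cytosolic enzyme, read 1993 with the empty virus and 2486 with GLUT1, a linear ratio of 1.25 and a log2 ratio of 0.32. At 2.92 local spreads it was the member farthest from 0 of the 33 measured, and it was read by 1 probe set. Got2, the mitochondrial enzyme, read 8060 and 7877, a log2 ratio of -0.032, and its second probe set was below the floor on both arrays. Got1 and Got2 differed by 0.35, or 2.61 joint local spreads. Of 10 pairs of isoforms or partner subunits set side by side, chosen with the values known, this was the only one beyond 2. The 10 did not cover every pair of partner subunits. Suclg1 and Suclg2, which were not among them, lay 0.28 apart, with local spreads of 0.094 and 0.092. The count therefore does not set Got1 and Got2 apart from all partner pairs. Glud1, the mitochondrial glutamate dehydrogenase, read 5109 and 4725, a log2 ratio of -0.11, and a second probe set annotated to the same sequence record gave -0.12.

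The plot of the ratios puts the members and their further probe sets side by side.

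**Figure D2:**
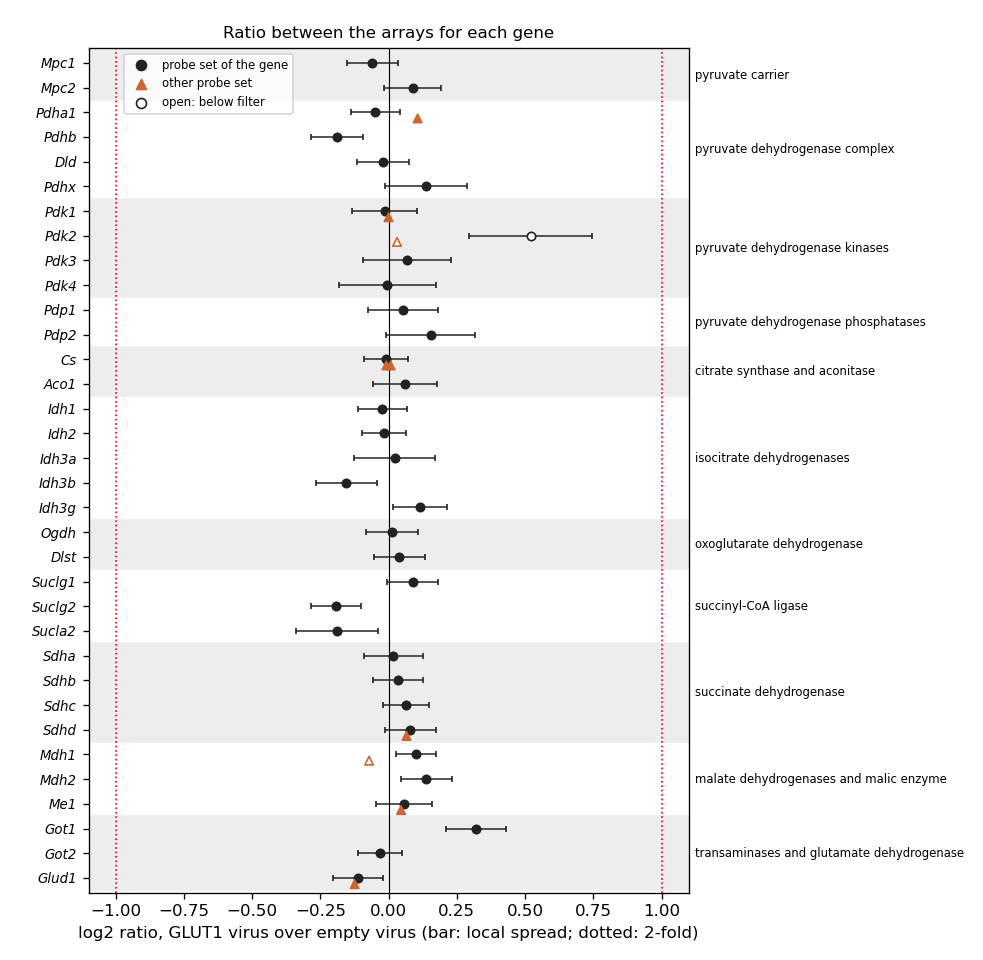
Log2 ratio of GLUT1 over empty virus for each of the 34 genes, 1 row per gene and grouped by step; circles are the probe set that represents the gene, bars are 1 local spread to either side, triangles are its other probe sets not at the floor, open symbols lie below the brightness filter, and dotted lines mark 2-fold. Every measured member lies between -0.19 and 0.32, and the largest ratio, 0.52 for Pdk2, lies below the filter and is not shared by its second probe set at 0.031.

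Agreement within a gene could be read in the 6 genes that had more than 1 measured probe set. Their 7 further probe sets had the sign of the first in 5 cases and the opposite sign in 2, for Pdha1 and for 1 of those of Cs. The difference from the first probe set ran from 0.0013 to 0.15, with a median of 0.015. Probe sets of Sdhd and of Glud1 share a sequence record within the gene and are no independent readings. The measured members farthest from 0, Got1, Suclg2, Sucla2 and Pdhb, had 1 probe set each and no such reading.

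Set beside the whole array, the members lay somewhat closer to 0. Their log2 ratios had an SD across genes of 0.11, or 0.095 without Got1, beside 0.14 over all measured genes. Within 0.1 of 0 were 22 of 33 members, or 66.7%, beside 58.5% of all measured genes. In local spreads, which allow for brightness, the median distance was 0.55 for the members and 0.67 for all measured genes. Beyond 2 local spreads were 1 member above, Got1, and 1 below, Suclg2, beside 2.94% of all measured genes above and 2.54% below. Those shares are near the background for 33 genes and give no result about the members. Pdhb, at 1.98, lay just inside that limit. The 30 other linked genes described below lay closer still to 0, with an SD of 0.079, 73.3% within 0.1 of 0 and a median distance of 0.41 local spreads, so nearness to 0 was not particular to the members.

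**Figure D3:**
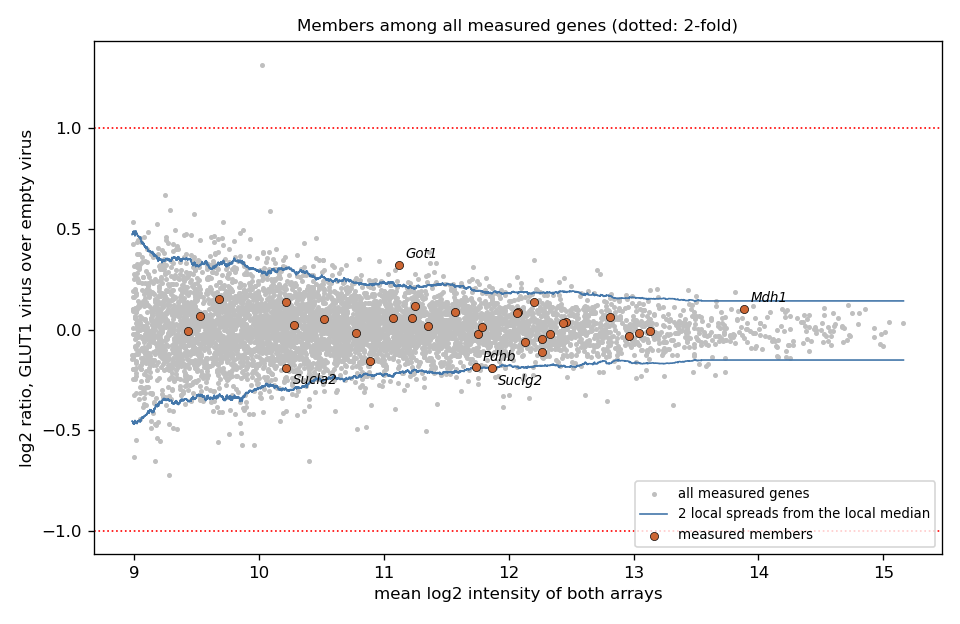
Log2 ratio of GLUT1 over empty virus against mean log2 intensity of both arrays for all 6114 measured genes (grey) and the 33 measured members (orange); blue lines lie 2 local spreads to either side of the local median and dotted lines mark 2-fold. The members lie between mean log2 intensities of 9.43 (Pdk4) and 13.89 (Mdh1), most of them near the middle of the cloud, with Got1 above and Suclg2 just below the blue lines; the grey point above 2-fold is Slc7a5 at 1.32.

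Other genes joined to the pathway were taken from a list of 50 that holds carriers, anaplerotic and lactate enzymes, lipoate synthesis and assembly factors. Of these 40 had a probe set and 30 were measured. None of the 30 differed by 2-fold or lay beyond 2 local spreads, and their median log2 ratio was 0.0076, with 16 above and 14 below 0. The highest were Slc25a12, an aspartate-glutamate carrier, at 564 and 637 with a log2 ratio of 0.18, Ldhb, a lactate dehydrogenase subunit, at 0.14, Lias, the lipoate synthase, at 0.13, and Vdac2, a channel of the outer membrane, at 0.11. The lowest were Slc25a13, the other aspartate-glutamate carrier, at 1946 and 1757 with a ratio of -0.15, the dicarboxylate carrier gene Slc25a10 at -0.14, Pck2, the mitochondrial phosphoenolpyruvate carboxykinase, at -0.082, and the complex II assembly factor gene Sdhaf3 at -0.062. The aspartate-glutamate carriers, which serve the same shuttle as Got1, thus lay on opposite sides of 0. Pc, pyruvate carboxylase, which feeds pyruvate into the cycle as oxaloacetate, read 1403 and 1360, a ratio of -0.044. Fh of this list is only named here.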

How the data were processed

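Expression was measured in 2 pools of A7r5 cells, 1 per group, each on 1 array; groups come from the sample titles, since the description label is the same on both. The authors deposited a linear intensity for each of 15923 probe sets on each array, rounded to whole numbers. Not given in the sources used here are the software, summary method, background correction and normalization; detection calls were not used. The number of arrays limits the precision. Genes were assigned by the platform annotation and their symbols updated, by gene ID, to those of RefSeq assembly GRCr8; 12783 had 1 gene, 312 several and 2771 none, and those with several or none were left out. Scaling set the median log2 ratio of the brighter probe sets to 0 (a shift of -0.0013), values were floored at 175 and log2 was taken. Ratios, medians and local spreads were computed with Python 3.11.15, numpy 2.4.6 and pandas 2.3.3. The steps were also run on simulated data with known changes. The limit set there was much looser for decreases than for increases, so that run gives little assurance for decreases. All members are named; of the other linked genes, the 4 highest, the 4 lowest, Fh and Pc. Members, lists, steps and pairs were chosen with earlier results of these data known. Alternatives were other scaling, floors, filters, probe set choices and a 1.5-fold call.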

Additional observations from a re-analysis of the deposited data

How the results depend on the processing

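No paired analysis was possible because a single array stands for each group. The count of members at 2-fold was 0 in both directions under every alternative tried, including no brightness filter, which brings in Pdk2, and a call at 1.5-fold. The share of all measured genes at 2-fold, 0.0164%, became 0.0327% with a floor at the 40th percentile, 0.0864% with no filter, 0% with the filter raised to the 75th percentile, and 0.131% for a call at 1.5-fold. The median of succinyl-CoA ligase moved from -0.19 to -0.052 with the filter at the 75th percentile, which leaves out Sucla2. Mdh1 came to 0.015, and its step median from 0.10 to 0.051, when all probe sets were averaged. The kinase median turned from -0.0049 to 0.031 with no filter. Pdha1 turned from -0.049 to 0.029 with averaged probe sets, and the median of its complex from -0.034 to 0.0044. The median of the members ran from 0.015 to 0.029 over all alternatives. The deposited values were already equalised, so other scalings moved them little and say little about stability. The local spread, which limits what a single ratio can show, ran from 0.073 for the brightest to 0.18 for the dimmest measured member.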

Other observations

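Grouped by compartment after the values were seen, the 5 cytosolic members Aco1, Idh1, Mdh1, Me1 and Got1 gave 4 log2 ratios above 0 and 1 below, with a median of 0.059. Of all measured genes 52.2% were above 0. Aco1, Me1 and Mdh1 lay only 0.50, 0.55 and 1.45 local spreads from the median of like probe sets. A difference between the compartments was not tested. The 28 measured members of the mitochondrion had a median of 0.015, with 15 above and 13 below 0. The highest cytosolic value was Got1 at 0.32 and the highest mitochondrial value was Pdp2 at 0.15. Me3, the mitochondrial NADP-dependent malic enzyme, lay below the brightness filter at 336 with the empty virus and 213 with GLUT1, a log2 ratio of -0.66 and 2.07 local spreads at that brightness, and was named after its value was seen.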
